A study of Mus musculus with 8 samples.

Results

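The genes described here were 9 mouse genes of plasminogen activation, coagulation and protein cross-linking: Tgm1, Tgm2, F13a1, Plat, Plau, Plaur, Serpine2, F3 and Thbd. They were taken by symbol, through the RefSeq accession of each array probe, which gave 11 of the 56605 probes on the array. The set was selected on the cryolesion changes measured on these arrays, with Tgm1 chosen by its large change, so the cryolesion values of the 9 genes are given as a description with no test. The 4 groups were cryolesioned mice deficient in microglia-derived Il6, cryolesioned floxed mice, control mice deficient in microglia-derived Il6 and control floxed mice, with 4 animals in each. A cryolesion is an injury made by freezing the tissue. Total RNA came from the right fronto-parietal cortex, dissected on the injured side. The Cre line behind the microglial deletion, the deleted stretch of Il6, the age and sex of the animals, the time after the lesion and the handling of controls are not given in the sources used here. Each of the 8 two-colour Agilent arrays carried RNA of 2 animals from different groups, and each group had 2 animals in Cy5 and 2 in Cy3. The 8 arrays formed a loop of 4 sides with 2 arrays each: Il6-deficient cryolesioned with floxed cryolesioned, floxed cryolesioned with Il6-deficient control, Il6-deficient cryolesioned with floxed control, and Il6-deficient control with floxed control. No array held a cryolesioned and a control animal of the same genotype, so each cryolesion change within a genotype was estimated through the other genotype.

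The plasminogen system dissolves fibrin and other matrix. The proteases tPA (from Plat) and uPA (from Plau) cut plasminogen into plasmin, uPA is held at the cell surface by its receptor uPAR (from Plaur), and serpins such as protease nexin-1 (from Serpine2) block the proteases. Coagulation is started by tissue factor (from F3) and restrained by thrombomodulin (from Thbd), which turns thrombin towards activation of protein C. Transglutaminases join glutamine and lysine side chains of proteins: the factor XIII A subunit (from F13a1) cross-links fibrin, tissue transglutaminase (from Tgm2) acts on many proteins inside and outside cells, and transglutaminase 1 (from Tgm1) is best known for building the cornified envelope of the skin.

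By the scanner software's own flag, each channel detected 59.2 to 65.9% of the probes well over background, and 0 spots were saturated. All 9 cortical neuron markers were above background in every animal. For the brighter of 2 Il6 probes, 0 of 4 Il6-deficient cryolesioned animals, 3 of 4 floxed cryolesioned animals, 0 of 4 Il6-deficient controls and 0 of 4 floxed controls passed that flag. Whether these probes lie in the deleted stretch is not given, so they check the genotype only in part. Xist was above background in 0 of 4 Il6-deficient cryolesioned, 0 of 4 floxed cryolesioned, 1 of 4 Il6-deficient control and 3 of 4 floxed control animals, and the Y-linked gene Eif2s3y showed the opposite counts of 4, 4, 3 and 1 animals in the same order of groups. Sex was therefore uneven between the groups, and its part in the results was not tested beyond one alternative with the Xist ratio as a covariate. All arrays shared 1 slide and 1 scan.

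Of the 11 probes, 9 were tested, 1 for each gene. A second probe for F13a1 and a second for Plau were well above background in 0 of 16 channels and gave no measurement. For Tgm2, F13a1, Plat, Plau, Plaur, Serpine2, F3 and Thbd the tested probe was above background in all 16 channels, and for Tgm1 in 12 of 16. Levels below are log2 intensities after normalization, per animal, and the probe of one gene is not set against that of another. In bulk tissue, a change in the number of cells of a type and a change in RNA per cell cannot be told apart.

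Tgm1 had by far the highest fitted change after cryolesion of the 9 genes, at 13.9-fold in Il6-deficient and 16.1-fold in floxed animals. Only 2 of 4 controls of each genotype were above background for it, and the size of the fold moved with the background correction. Over 17 alternatives its log2 change ran from 3.56 to 5.67 in Il6-deficient and from 3.89 to 5.70 in floxed animals, highest in both with the scanner software's processed intensities. The fitted log2 changes of 8 of the 9 genes lay above 0 in both genotypes and those of Serpine2 below 0, most of them without passing the test, and with a replicate block those of Plau and Thbd in Il6-deficient animals were -0.16 and -0.19. Tgm2 and Plaur had fitted folds between 2.56 and 2.79. The median log2 change of the 9 genes was 0.79 in Il6-deficient and 1.33 in floxed animals, where the median of all 29362 tested features was -0.01 in each. At a Benjamini-Hochberg adjusted p under 0.05 in limma, 2 of the 9 genes (Tgm1 and Plaur) were called in Il6-deficient animals, where 2.73% of all features were called, and the same 2 in floxed animals, where 3.05% were. In the mean of both genotypes 4 were called (Tgm1, Tgm2, Plaur and F13a1), against 11.9% of all features. These counts rest on the comparison used to choose the genes, so nothing is read from them. With 1 array left out at a time, Tgm1 was called in all 8 fits in both genotypes, and Plaur in 2 of 8 in Il6-deficient and 1 of 8 in floxed animals. In the mean, Tgm1 and Plaur were called in all 8 such fits, Tgm2 in 6 and F13a1 in 4, and 1 gene was called with a replicate block.

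**Figure D1:**
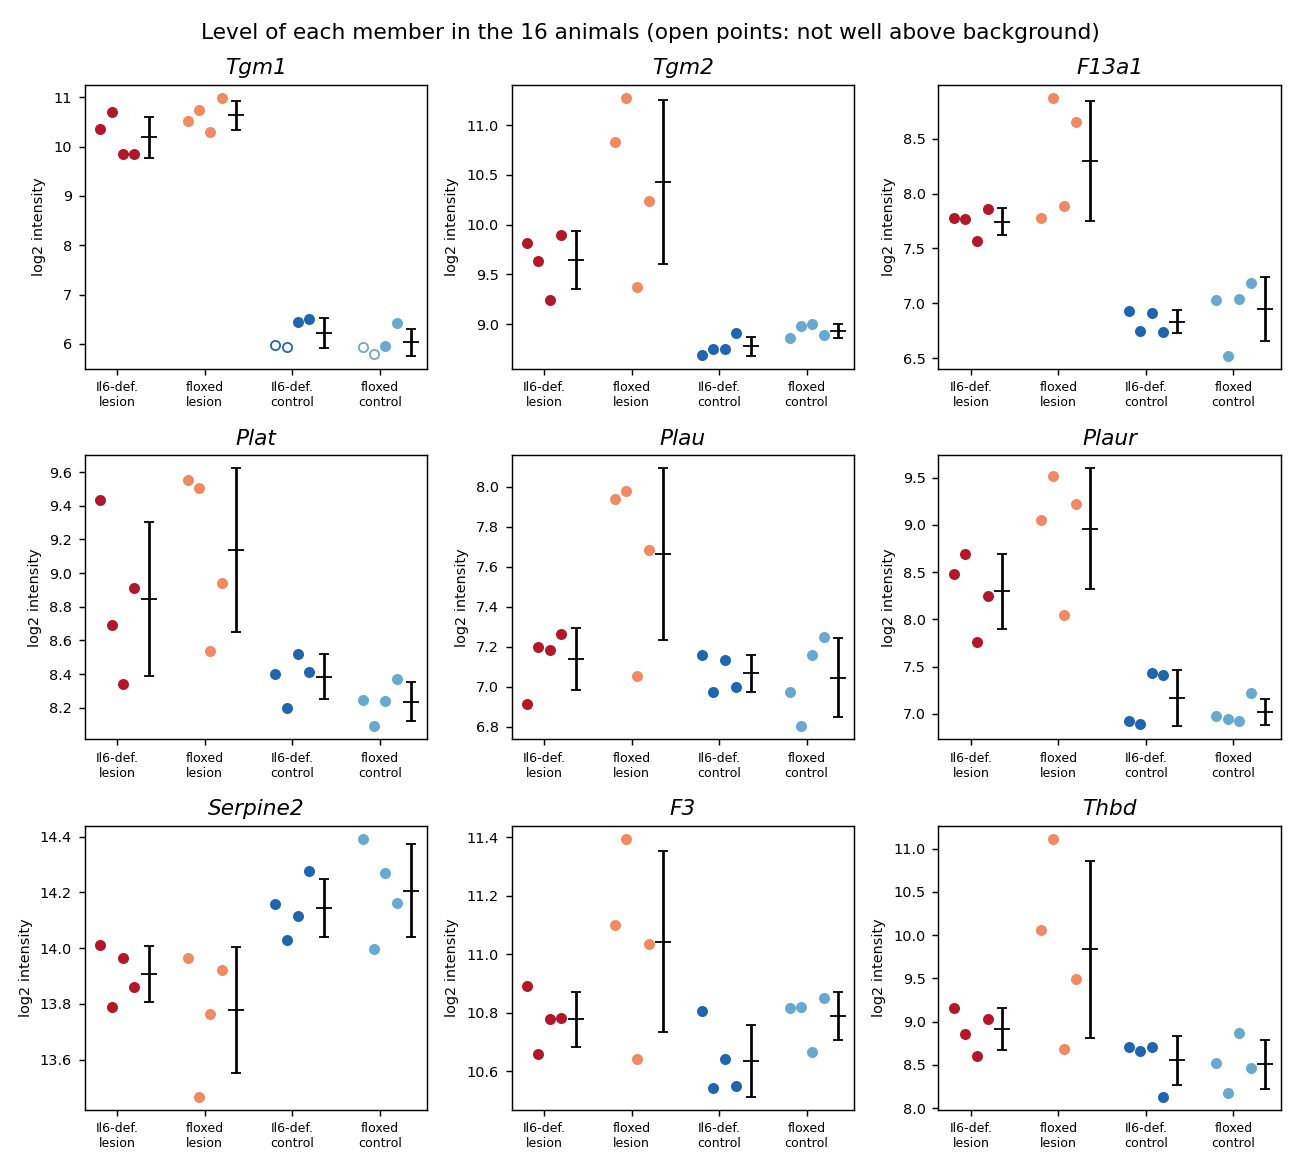
Log2 intensity of the tested probe of each of the 9 genes in the 16 animals, by group, with the mean and SD of the 4 animals (bars). Open points were not well above background. Tgm1 lies between 9.84 and 10.99 in the 8 cryolesioned animals and between 5.80 and 6.50 in the 8 controls.

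Tgm1 was at 10.37, 10.70, 9.86 and 9.84 in Il6-deficient cryolesioned animals 1 to 4, and at 10.52, 10.73, 10.29 and 10.99 in floxed cryolesioned animals. It was at 5.98, 5.94, 6.45 and 6.50 in Il6-deficient controls, and at 5.94, 5.80, 5.97 and 6.42 in floxed controls. Every cryolesioned animal was above every control by more than 3 log2 units, while the cryolesioned groups overlapped each other, as did the control groups. The fitted log2 change was 3.80 ± 0.17 in Il6-deficient and 4.00 ± 0.17 in floxed animals (SE, n = 4 per group), with a mean of 3.90 ± 0.12.

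The control values of Tgm1 lay near the detection limit. It was above background in 2 of 4 Il6-deficient controls and in 2 of 4 floxed controls, and all 4 had been hybridised together with cryolesioned cortex. Their mean was 6.34, and that of the 4 controls whose array partner was another control was 5.91, with 0 of 4 above background. Plaur, above background in every control, had a mean of 7.25 in the controls paired with a cryolesioned animal and 6.94 in the others. Its ranges overlapped, at 6.92 to 7.43 and 6.90 to 6.98. The other genes had smaller differences in the same direction, except F3, at 10.68 against 10.75. What the array partner contributes to these values was not tested.

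RefSeq (GRCm38.p6) places Tgm1 on chr14:55700009-55713921. Its promoter window, from 250 bases before to 50 bases after an annotated start, is chr14:55713443-55713742 on the minus strand. That start lies inside the span of the gene, whose outermost base on this side, 55713921, is not in the window. It is shown because Tgm1 had the largest change of the set and because Il6 acts through STAT factors. Capitals mark the letters TTCNNNGAA (the core of a STAT element) and GGGCGG (an Sp1 box) on either strand.
Tgm1 promoter: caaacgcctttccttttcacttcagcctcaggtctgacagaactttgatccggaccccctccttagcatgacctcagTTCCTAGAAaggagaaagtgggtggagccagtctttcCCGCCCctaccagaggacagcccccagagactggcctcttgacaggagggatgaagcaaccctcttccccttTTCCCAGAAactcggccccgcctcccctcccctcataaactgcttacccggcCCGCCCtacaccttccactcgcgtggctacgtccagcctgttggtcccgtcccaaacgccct
The window holds TTCCTAGAA starting 173 bases and TTCCCAGAA starting 64 bases before the start, and 2 Sp1 boxes. At least 1 such STAT core is found in 8.3% of 32851 promoter windows of this length, and 2 or more in 0.457%. A second annotated start of Tgm1, at chr14:55713039-55713338, held none of the motifs searched. A match of letters is a description of the window and not evidence of binding.

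The 5 genes closest to Tgm1 in their profile over the 16 animals were found by the root mean square difference of log2 levels after centring each gene, among 16851 genes compared. These were Hmox1 (haem oxygenase) at 0.35, Ptx3 (a secreted pentraxin) at 0.39, Tubb6 (a beta-tubulin) at 0.46, and the chemokine genes Ccl12 at 0.46 and Ccl2 at 0.47. Their mean-of-genotypes log2 changes were 3.81 for Hmox1, 3.46 for Ptx3, 4.14 for Tubb6, 4.50 for Ccl12 and 3.86 for Ccl2. All 16 animals share the loop, so this likeness rests largely on the step between cryolesioned and control animals.

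Tgm2 was at 9.82, 9.63, 9.24 and 9.89 in Il6-deficient cryolesioned animals and at 10.83, 11.27, 9.37 and 10.24 in floxed cryolesioned animals. It was at 8.69, 8.75, 8.75 and 8.92 in Il6-deficient controls and at 8.86, 8.98, 9.01 and 8.89 in floxed controls. The 8 cryolesioned animals lay above the 8 controls, and floxed cryolesioned animals spread over nearly 2 log2 units. In the fit Tgm2 had a log2 change of 1.48 ± 0.33 in Il6-deficient and 1.36 ± 0.33 in floxed animals (SE). The plain differences of its group mean levels were 0.87 in Il6-deficient and 1.49 in floxed animals.

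F13a1, in brain tissue a transcript of macrophages, was at 7.78, 7.77, 7.57 and 7.86 in Il6-deficient cryolesioned animals, and at 7.78, 8.87, 7.88 and 8.65 in floxed cryolesioned animals. It was at 6.93, 6.75, 6.91 and 6.74 in Il6-deficient controls, and at 7.03, 6.52, 7.04 and 7.19 in floxed controls. No cryolesioned animal fell into the range of the controls, and the Il6-deficient cryolesioned animals lay within 0.3 of each other. For F13a1 the fit gave a log2 change of 0.77 ± 0.31 in Il6-deficient and 1.33 ± 0.31 in floxed animals (SE).

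Plaur, the receptor gene, was at 8.48, 8.70, 7.76 and 8.25 in Il6-deficient cryolesioned animals and at 9.05, 9.52, 8.04 and 9.22 in floxed cryolesioned animals. It was at 6.92, 6.90, 7.43 and 7.41 in Il6-deficient controls and at 6.98, 6.95, 6.92 and 7.22 in floxed controls. The cryolesioned and control animals did not overlap in either genotype. The fitted log2 change of Plaur was 1.40 ± 0.26 in Il6-deficient and 1.39 ± 0.26 in floxed animals (SE). The plain differences of its group mean levels were 1.13 in Il6-deficient and 1.94 in floxed animals.

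Plau, whose product binds that receptor, was at 6.92, 7.20, 7.18 and 7.26 in Il6-deficient cryolesioned animals and at 7.94, 7.98, 7.05 and 7.68 in floxed cryolesioned animals. It was at 7.16, 6.97, 7.14 and 7.0 in Il6-deficient controls and at 6.98, 6.80, 7.16 and 7.25 in floxed controls. In the floxed cryolesioned group animals 1, 2 and 4 stood above all others, while animal 3 of that group and all Il6-deficient cryolesioned animals lay among or next to the controls. By the fit, the log2 change of Plau was 0.21 ± 0.18 in Il6-deficient and 0.70 ± 0.18 in floxed animals (SE).

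Plat was at 9.43, 8.69, 8.34 and 8.91 in Il6-deficient cryolesioned animals and at 9.55, 9.51, 8.53 and 8.94 in floxed cryolesioned animals. It was at 8.40, 8.20, 8.52 and 8.41 in Il6-deficient controls and at 8.25, 8.09, 8.24 and 8.37 in floxed controls. The floxed groups did not overlap, and Il6-deficient cryolesioned animal 3 lay among its controls. Plat had a fitted log2 change of 0.79 ± 0.30 in Il6-deficient and 0.60 ± 0.30 in floxed animals (SE).

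Serpine2, the inhibitor gene, was at 14.01, 13.79, 13.96 and 13.86 in Il6-deficient cryolesioned animals and at 13.97, 13.47, 13.76 and 13.92 in floxed cryolesioned animals. It was at 14.16, 14.03, 14.12 and 14.28 in Il6-deficient controls and at 14.39, 14.00, 14.27 and 14.16 in floxed controls. The groups of each genotype did not overlap, by margins of 0.02 and 0.03. The fitted log2 change of Serpine2 was -0.31 ± 0.16 in Il6-deficient and -0.47 ± 0.16 in floxed animals (SE).

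F3 was at 10.89, 10.66, 10.78 and 10.78 in Il6-deficient cryolesioned animals and at 11.10, 11.39, 10.64 and 11.03 in floxed cryolesioned animals. It was at 10.81, 10.54, 10.64 and 10.55 in Il6-deficient controls and at 10.82, 10.82, 10.67 and 10.85 in floxed controls. The cryolesioned and control ranges overlapped in both genotypes. The fit gave F3 a log2 change of 0.38 ± 0.19 in Il6-deficient and 0.30 ± 0.19 in floxed animals (SE).

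Thbd was at 9.16, 8.86, 8.60 and 9.03 in Il6-deficient cryolesioned animals and at 10.06, 11.11, 8.68 and 9.49 in floxed cryolesioned animals. It was at 8.71, 8.66, 8.71 and 8.13 in Il6-deficient controls and at 8.52, 8.17, 8.87 and 8.46 in floxed controls. Both pairs of groups overlapped, and floxed cryolesioned animals ranged from 8.68 to 11.11, the widest spread of any gene and group in the set. Thbd had a fitted log2 change of 0.95 ± 0.60 in Il6-deficient and 1.37 ± 0.60 in floxed animals (SE). In Il6-deficient animals the plain difference of group mean levels was 0.36, well under the fitted 0.95, which runs through the arrays of both genotypes.

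Promoter windows of Plaur, F3 and Serpine2 are shown for comparison with that of Tgm1, the first 2 from genes with fitted changes above 0 and the last from the gene with fitted changes below 0. They are chr7:24462233-24462532 on the plus strand for Plaur, chr3:121723287-121723586 on the plus strand for F3, and chr1:79858616-79858915 on the minus strand for Serpine2. The start used for Plaur lies inside the span of the gene, whose outermost base on this side, 24460937, is not in the window. Capitals mark an AP-1 site, searched as TGAGTCA, and Sp1 boxes as above, all on either strand, with overlapping boxes run together. They also mark a TATA box, for which both strands were searched with the letters TATAAA.
Plaur promoter: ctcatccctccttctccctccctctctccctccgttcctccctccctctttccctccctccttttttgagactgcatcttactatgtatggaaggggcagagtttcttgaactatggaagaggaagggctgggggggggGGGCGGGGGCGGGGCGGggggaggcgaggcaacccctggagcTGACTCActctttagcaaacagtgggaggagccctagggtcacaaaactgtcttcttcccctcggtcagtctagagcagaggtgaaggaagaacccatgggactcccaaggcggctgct
F3 promoter: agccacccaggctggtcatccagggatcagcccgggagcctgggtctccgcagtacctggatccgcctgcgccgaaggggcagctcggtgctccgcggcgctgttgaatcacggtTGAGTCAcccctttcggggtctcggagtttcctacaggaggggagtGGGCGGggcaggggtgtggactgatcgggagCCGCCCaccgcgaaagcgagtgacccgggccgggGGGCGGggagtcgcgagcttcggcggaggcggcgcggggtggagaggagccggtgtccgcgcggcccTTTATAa
Serpine2 promoter: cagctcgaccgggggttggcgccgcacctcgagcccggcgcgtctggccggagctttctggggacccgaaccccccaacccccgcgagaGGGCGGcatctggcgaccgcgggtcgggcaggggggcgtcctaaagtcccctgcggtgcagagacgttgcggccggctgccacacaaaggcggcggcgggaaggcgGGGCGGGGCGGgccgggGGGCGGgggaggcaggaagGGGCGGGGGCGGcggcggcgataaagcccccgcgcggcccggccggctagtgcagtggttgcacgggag
The Plaur window holds 1 AP-1 site, starting 69 bases before the start, and 3 Sp1 boxes, and the F3 window holds 1 AP-1 site, starting 135 bases before the start, 3 Sp1 boxes and 1 TATA match after the start. The Serpine2 window holds 6 Sp1 boxes. An AP-1 site is found in 5.2% of all windows, an Sp1 box in 35.7% and a TATA match in 13.6%. A C/EBP site, searched as TTGCNNCAA and found in 2.08% of all windows, was in no window of the set. The same held for the cyclic AMP element, searched as TGACGTCA, which 1.79% of all windows hold, and for an NF-kB site, which 0.411% hold. The 2 windows of F13a1 held no searched motif. Windows were at hand for 5 of the 9 genes, and Tgm2, Plat, Plau and Thbd are only named.

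**Figure D2:**
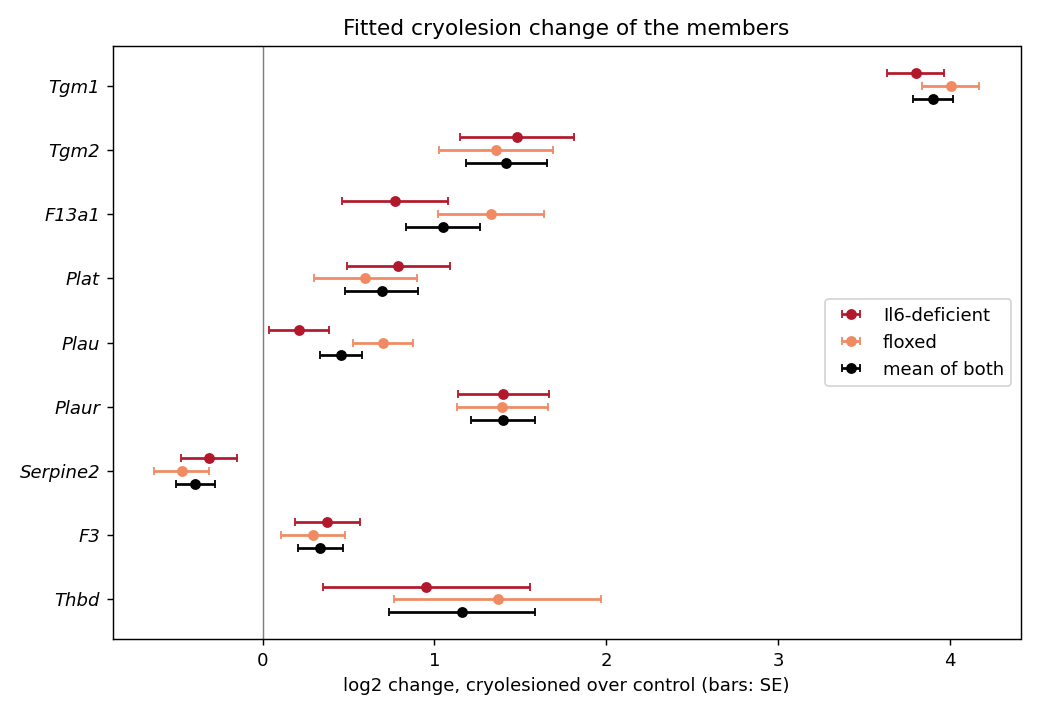
Fitted log2 change, cryolesioned over control, of the 9 genes in Il6-deficient animals, in floxed animals and as the mean of both genotypes (points), with SE (bars). Tgm1 lies near 4, Tgm2 and Plaur near 1.4, and Serpine2 below 0.

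Counted by animals rather than by the fit, 5 of the 9 genes had cryolesioned and control groups that did not overlap in Il6-deficient animals (4 higher and Serpine2 lower), where 17.3% of all features did not (8.41% higher and 8.85% lower). In floxed animals 6 did not overlap (5 higher and Serpine2 lower), where 14.8% of all features did not (7.33% higher and 7.49% lower). The genes were chosen on cryolesion changes in these same animals, so nothing is read from these counts either. In the floxed cryolesioned group, animal 2 had the highest level for 6 of the 9 genes and animal 3 the lowest for 7. In the Il6-deficient cryolesioned group, animal 3 was lowest for 5 genes, and the highest level was in animal 1 for 4 genes, animal 4 for 3 and animal 2 for 2. The controls also had animals at one end for many of the genes. In Il6-deficient controls animal 2 was lowest for 6, and in floxed controls animal 4 was highest for 6 and animal 2 lowest for 6.

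In the floxed cryolesioned group the same animals stood at the ends of the summed markers of macrophages and vascular cells. The summed intensity of 11 monocyte and border macrophage markers was 5576 to 8548 in Il6-deficient cryolesioned, 6880 to 12923 in floxed cryolesioned, 4694 to 6193 in Il6-deficient control and 5363 to 5432 in floxed control animals. Within the floxed cryolesioned group it was highest in animal 2 and lowest in animal 3. In the Il6-deficient cryolesioned group it was lowest in animal 3 and highest in animal 2. That animal 2 was highest for only 2 of the 9 genes and lowest for 2. The sum of 10 endothelial markers ran from 12720 to 18982 in Il6-deficient cryolesioned, 13750 to 23033 in floxed cryolesioned, 11143 to 14045 in Il6-deficient control and 12666 to 14154 in floxed control animals, with the same lowest and highest animals in both cryolesioned groups. Each of these sums is weighted towards its brightest probe. In the macrophage sum that was Ly6c2, with group mean log2 levels of 11.99 to 12.78. In the endothelial sum it was Ly6c1, at 12.44 to 13.21. Neither was called in the mean of both genotypes (adjusted p = 0.0731 and 0.173 in limma). In the mean of both genotypes, 5 of the 11 monocyte and border macrophage markers were called higher and 0 lower (Mrc1, Ccr2, Plac8, Chil3 and Stab1), and of the endothelial markers 2 were called higher (Cdh5 and Esam) and 1 lower (Slco1a4). The sum of 9 neutrophil markers was 1501 to 2668 in Il6-deficient cryolesioned, 1817 to 4762 in floxed cryolesioned, 895 to 1043 in Il6-deficient control and 950.4 to 1030 in floxed control animals, with S100a8 and S100a9 called higher of 6 tested. Among floxed cryolesioned animals the neutrophil sum was lowest in animal 1 and highest in animal 2. Among Il6-deficient cryolesioned animals it was lowest in animal 3 and highest in animal 1. The sum of 7 mural cell markers was 7189 to 7560 in Il6-deficient cryolesioned, 8666 to 9959 in floxed cryolesioned, 5365 to 5726 in Il6-deficient control and 5423 to 6759 in floxed control animals, with 2 called higher (Kcnj8 and Tagln). In the Il6-deficient cryolesioned group the mural sum was lowest in animal 1 and highest in animal 2. The part of these cells in the values of the 9 genes was not tested.

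Markers of other cell types were counted in the same way. Of 8 platelet markers 0 were called in any comparison, with the mean-of-genotypes change of Pf4 at 1.08 (adjusted p = 0.0546 in limma), and of 5 tested erythroid markers 0 were called. Of 5 tested keratinocyte markers, the cell type in which Tgm1 is best known, 0 were called in the mean of both genotypes, with a median log2 change of -0.10. Astrocyte marker Gfap changed by 3.58 ± 0.18 (SE; adjusted p = 0.000317 in limma), and 2 of 7 astrocyte markers were called higher and 1 lower. Of 9 markers of microglia, the cells in which Il6 was deleted, 2 were called higher (Fcrls at 1.34 and Cx3cr1 at 0.36, log2) and 3 lower (P2ry12 at -1.47, Tmem119 at -0.57 and Csf1r at -0.31) in the mean of both genotypes. Their summed intensity was 48767 to 72485 in Il6-deficient cryolesioned, 46638 to 60032 in floxed cryolesioned, 50561 to 70126 in Il6-deficient control and 44131 to 59630 in floxed control animals. Cx3cr1 also had lower mean log2 levels in Il6-deficient than in floxed animals. They were 11.45 against 12.25 after cryolesion and 10.89 against 11.95 in controls. The fitted genotype differences of Cx3cr1 did not pass (adjusted p = 0.563 and 0.534 in limma, in that order). Their cause, and their part in the genotype comparisons of the 9 genes, was not tested. Of 9 meningeal fibroblast markers Dcn was called higher, at 1.40, and Igf2 lower, at -0.83. The median of their summed intensity was 26715 in Il6-deficient cryolesioned, 30010 in floxed cryolesioned, 49269 in Il6-deficient control and 48795 in floxed control animals. This sum is weighted towards its brightest probe, Ptgds, which changed by -0.73 and was not called (adjusted p = 0.155 in limma). The median log2 change of the 9 meningeal markers was -0.06. Of 9 cortical neuron markers 2 were called lower (Tbr1 and Camk2a). The part of these cells, too, in the values of the 9 genes was not tested. The summed intensity of 7 striatal neuron markers varied from 25295 to 83237 in Il6-deficient cryolesioned, 19105 to 70539 in floxed cryolesioned, 33166 to 52354 in Il6-deficient control and 46257 to 88658 in floxed control animals.

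The ratios on single arrays show where the fitted values come from. On the 2 arrays of Il6-deficient cryolesioned over floxed control animals, Tgm1 had log2 ratios of 3.89 and 3.42, and on the 2 arrays of floxed cryolesioned over Il6-deficient control animals 4.07 and 4.23. The 4 ratios of Tgm1 thus lay within 0.81 of each other although they came from different animals and both dye orientations. For Thbd the same 4 ratios were -0.27 and 0.57 for Il6-deficient cryolesioned over floxed control, and 1.35 and 2.99 for floxed cryolesioned over Il6-deficient control. For Plau they were 0.03 and 0.01, and 0.81 and 0.98. Tgm2 had ratios of 0.23 and 1.00, and 2.08 and 2.36. Plaur had 0.84 and 1.03, and 1.62 and 2.10. For 8 of the 9 genes both ratios of floxed cryolesioned over Il6-deficient control were above both of Il6-deficient cryolesioned over floxed control, and Serpine2 was the exception. Of all features, 31.5% had the 2 sides apart, 15.2% in that direction and 16.3% in the other. The 9 genes were measured in the same 8 animals, so they are not independent counts, and these 2 sides differ in the genotype of both animals on an array. These arrays also carry the cryolesion changes on which the genes were chosen, so nothing is read from this count.

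**Figure D3:**
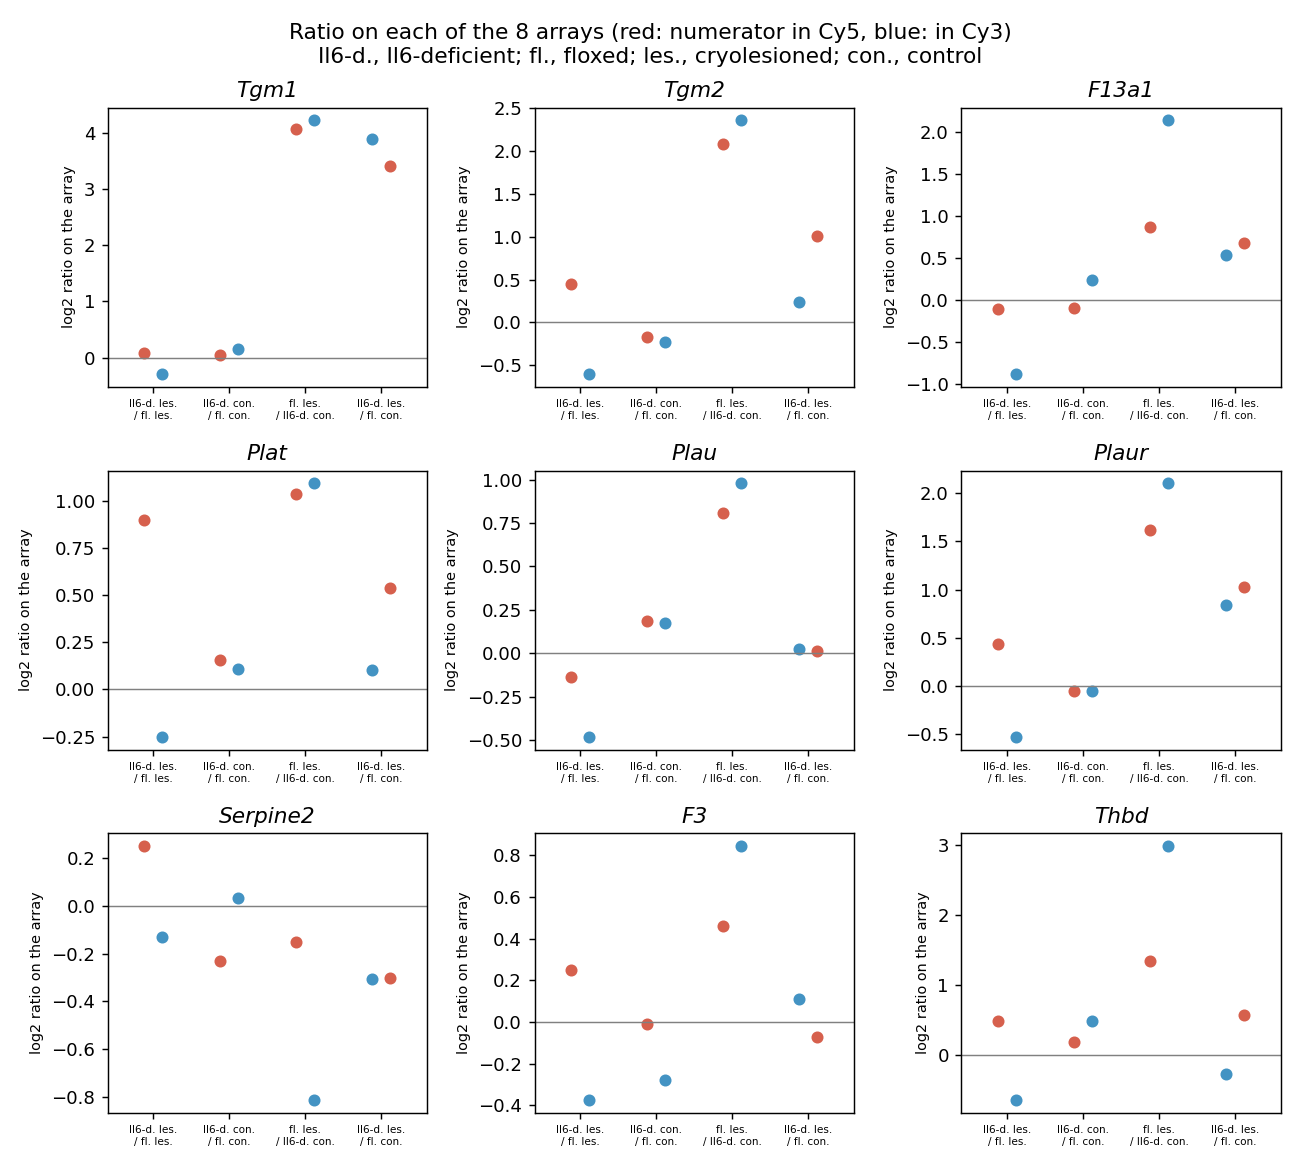
Log2 ratio of each of the 9 genes on each of the 8 arrays, by side of the loop, with the numerator in Cy5 (red) or Cy3 (blue). Tgm1 stands at 3.42 to 4.23 on the 4 arrays that pair a cryolesioned with a control animal and at -0.29 to 0.15 on the 4 that do not.

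The genotype comparisons set Il6-deficient against floxed animals, and were not themselves used to choose the set. They share their animals with the cryolesion changes behind that choice, so they are not independent of it. After cryolesion, 7 of the 9 genes had lower fitted values in Il6-deficient than in floxed animals and 2 (Plat and Serpine2) higher, and none passed the test. For Plat the plain difference of group mean levels had the opposite sign, at -0.29, and 3 of 17 alternatives turned the fitted value, which ran from -0.48 to 0.16. The largest differences were -0.65 ± 0.52 for Thbd, -0.61 ± 0.27 for F13a1 and -0.50 ± 0.15 for Plau (log2, SE). With 1 array left out at a time that of Thbd ran from -1.49, without the first array of the cryolesioned groups, to -0.30, without the second array of floxed cryolesioned over Il6-deficient control. That of F13a1 ran from -1.05 to -0.34, without the first and the second array of the cryolesioned groups, and that of Plau from -0.75 to -0.42. Plau had the lowest p of the set (unadjusted p = 0.0141 and adjusted p = 0.563 in limma), and its 95% interval was -0.86 to -0.13. By animals, Il6-deficient cryolesioned animals lay between 6.92 and 7.26 for Plau and floxed cryolesioned animals between 7.05 and 7.98, with animal 3 of the floxed group inside the range of the Il6-deficient group. For F13a1 the interval was -1.24 to 0.02, and for Tgm1, at -0.23 ± 0.14, it was -0.57 to 0.11. In limma the comparison called 0 of 29362 features (0%), with 2529 at an unadjusted p under 0.05, among them 1 of the 9 genes, and the separate-channel fit called 1 feature.

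In control animals the fitted genotype differences of the 9 genes ran from -0.53 for Tgm2 to -0.01 for Plau, all below 0, with a lowest adjusted p of 0.983 in limma. The intervals were -1.21 to 0.15 for Tgm2 and -0.37 to 0.32 for Tgm1. For Tgm1, Plat, Plau, Plaur and Thbd the plain difference of group mean levels had the opposite sign, between 0.02 and 0.19. In limma this comparison too called 0 of 29362 features (0%), with 1299 at an unadjusted p under 0.05, among them 0 of the 9 genes, and the separate-channel fit called 1 feature. In neither genotype comparison did any of the 9 genes have groups that did not overlap, where 4.46% of all features did not overlap after cryolesion (3.12% higher and 1.34% lower) and 4.01% in controls (1.79% higher and 2.21% lower).

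The difference between the cryolesion changes of the genotypes, Il6-deficient minus floxed, was -0.56 ± 0.43 for F13a1, -0.49 ± 0.25 for Plau and -0.42 ± 0.85 for Thbd (log2, SE). It was -0.20 ± 0.24 for Tgm1, with an interval of -0.76 to 0.35, and 0.01 ± 0.37 for Plaur. None passed (adjusted p = 1.00 for each in limma, unadjusted p under 0.05 for 0 of the 9 genes), and the comparison called 0 of 29362 features (0%) in limma, with 972 at an unadjusted p under 0.05, and 0 in the separate-channel fit. The intervals of Thbd (-2.43 to 1.60) and F13a1 (-1.59 to 0.47) include differences larger than 1 log2 unit in size, and so do those of Plau (-1.08 to 0.10), Tgm2 (-0.99 to 1.23) and Plat (-0.81 to 1.20), so differences of that size are not excluded for these 5 genes. For each of the 9 genes the plain cryolesion difference of group mean levels was larger in size in floxed than in Il6-deficient animals. For Plat (0.90 against 0.46), F3 (0.25 against 0.14), Tgm2 and Plaur this was the reverse of the order of the fitted changes. These differences rest on the cryolesion changes used to choose the genes, so nothing is read from them.

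Other genes of the same systems were counted from lists that name the plasminogen system, coagulation, and other transglutaminases with their substrates. Of 17 plasminogen system genes counted 14 could be tested, and in the mean of both genotypes 4 were called higher and 1 lower, where 6.02% of all features were called higher and 5.87% lower. Serpinf2, the plasmin inhibitor, rose by 1.65 ± 0.14 log2 units. Anxa2 and S100a10, whose products form a cell-surface complex that binds tPA and plasminogen, rose by 2.25 ± 0.20 and 1.51 ± 0.15. A2m, a broad protease inhibitor, rose by 1.34 ± 0.18, and Serpini1, the neuronal tPA inhibitor neuroserpin, fell by 0.92, with SE 0.14. The adjusted p of these 5 genes in limma ran from 0.00147 (Serpinf2) to 0.0101 (Serpini1). Over 17 alternatives the log2 change in the mean ran from 1.51 to 3.21 for Serpinf2 and from 1.15 to 3.83 for A2m. Serpini1 missed the threshold without the second array of floxed cryolesioned over Il6-deficient control (adjusted p = 0.0572) and without the second of Il6-deficient cryolesioned over floxed control (adjusted p = 0.0724). A2m was above background in 4 of 4 Il6-deficient cryolesioned and in 0 of 4 Il6-deficient control animals, and its mean level was at least 2.66-fold higher there. The fit gave a smaller change in those animals, 1.09 ± 0.25 on the log2 scale, that did not pass (adjusted p = 0.0802 in limma). A2m entered the test only through its cryolesioned animals, so its calls as higher are a description. The lists were chosen with earlier results of these arrays known, and the median log2 change over the 14 genes was 0.07, where the median of all features was -0.01.

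Within genotypes, 3 plasminogen system genes were called higher and 1 lower in Il6-deficient animals (1.67% and 1.07% of all features), and 4 higher and 0 lower in floxed animals (1.86% and 1.19% of all features). Serpini1 was called in Il6-deficient animals at -1.18 ± 0.20 and had -0.65 ± 0.20 in floxed animals. That call was made in 9 of 17 alternatives, with log2 changes of -1.39 to -0.73, and the difference between the genotypes was -0.52 ± 0.28 (adjusted p = 1.00 in limma). Plg, the gene of plasminogen itself, was above background in no channel.

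Of 27 coagulation genes 15 could be tested and 10 were above background in no channel, among them the fibrinogen genes Fga, Fgb and Fgg and the factor XIII B subunit gene F13b. In the mean of both genotypes 3 were called higher and 0 lower, with a median log2 change of 0.35 over the 15. Pros1, whose product protein S is the cofactor of activated protein C, rose by 1.55 ± 0.12 (adjusted p = 0.00105 in limma), and was the 1 coagulation gene called within each genotype. Procr, the endothelial protein C receptor gene, rose by 1.55 ± 0.29 (adjusted p = 0.0184 in limma). F10, the gene of factor X, rose by 1.18 ± 0.25 (adjusted p = 0.0277 in limma), and was above background in 4 of 4 floxed cryolesioned and in 0 of 4 floxed control animals, with a mean level at least 2.77-fold higher. In floxed animals its fitted log2 change was smaller, at 1.30 ± 0.35, and did not pass (adjusted p = 0.105 in limma). F10 entered the test only through its cryolesioned animals, so its call as higher is a description. Over 17 alternatives the log2 change of F10 in the mean ran from 0.78 to 3.53. Without the second array of floxed cryolesioned over Il6-deficient control, the change of Procr was 1.19 (adjusted p = 0.0782) and that of F10 0.78 (adjusted p = 0.0618), and both also missed the threshold without the second array of Il6-deficient cryolesioned over floxed control. Procr missed it without the first array of floxed cryolesioned over Il6-deficient control too (adjusted p = 0.0911), and F10 without the first array of the control groups (adjusted p = 0.0571) or the second of the cryolesioned groups (adjusted p = 0.0543), all in limma.

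Of 12 other transglutaminases and substrates 7 could be tested, with 2 called higher and 0 lower in the mean of both genotypes and a median log2 change of 0.07. The 2 were Vim, an intermediate filament gene, which rose by 2.68 ± 0.15 (adjusted p = 0.000489 in limma), and Sprr1a, a cornified envelope precursor gene, which rose by 0.67 ± 0.09 (adjusted p = 0.00605 in limma). Sprr1a was above background in 4 of 4 animals of each cryolesioned group and in 0 of 4 of each control group, with mean levels at least 1.33-fold higher in Il6-deficient and at least 1.8-fold higher in floxed animals. The fit gave log2 changes of 0.57 ± 0.12 (adjusted p = 0.0645 in limma) and 0.76 ± 0.12 (adjusted p = 0.0279 in limma) in the same order. Sprr1a entered the test only through its cryolesioned animals, in which it was above background, so its calls as higher are a description. The other tested transglutaminases, Tgm3, Tgm4 and Tgm6, had log2 changes of -0.19 ± 0.09, 0.01 ± 0.08 and 0.07 ± 0.06, and none was called. Of the 3 lists, 0 genes were called in either genotype comparison or in the difference of the cryolesion changes.

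**Figure D4:**
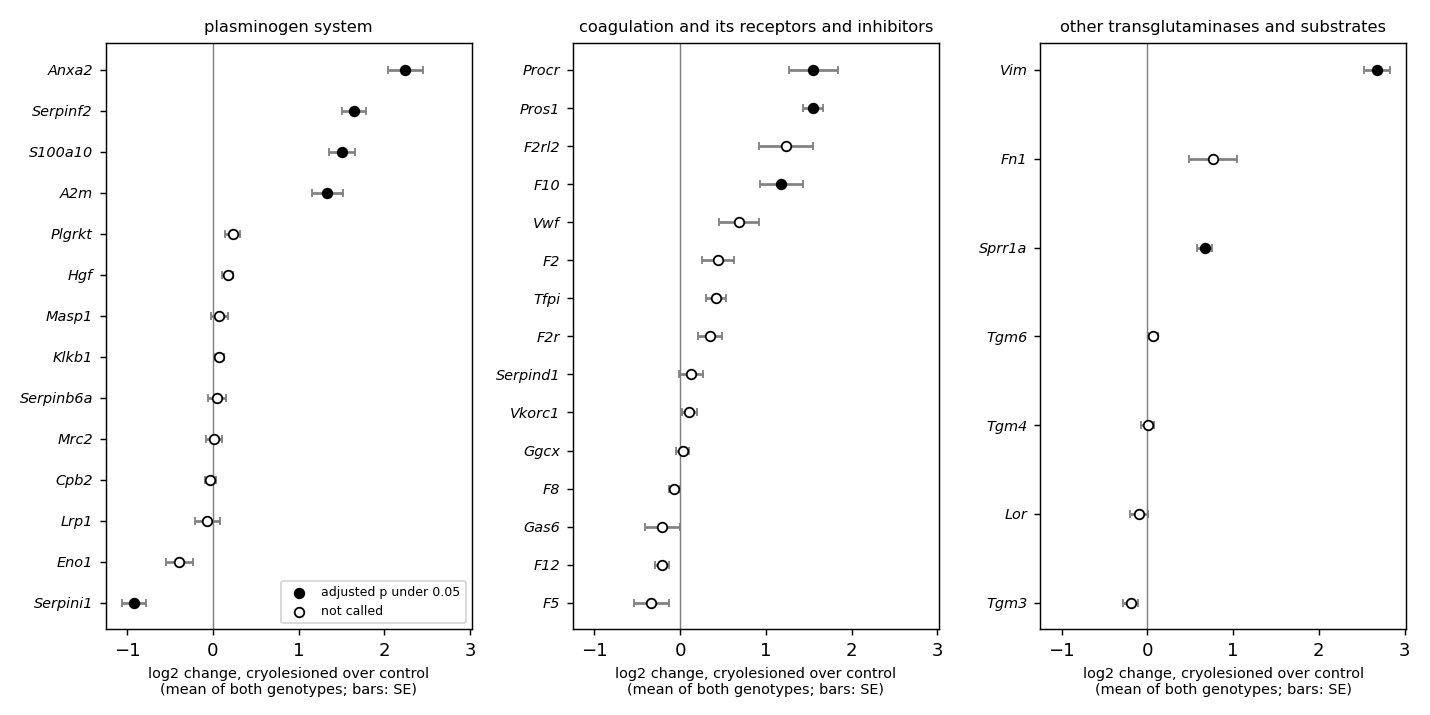
Fitted log2 change, cryolesioned over control as the mean of both genotypes, of the tested genes of 3 lists, with SE (bars). Filled points have an adjusted p under 0.05: 5 of 14 in the plasminogen system, 3 of 15 in coagulation and 2 of 7 among transglutaminases and substrates.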

How the data were processed

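Each array gave 1 scanner file, made with Agilent Feature Extraction 10.7.3.1 per the submitters' processing notes. The deposited scanner files hold median intensities of spots and of the background around them for both dyes, without normalization, per the file headers, and a log10 ratio of processed red over green intensity, which served only to read the authors' value table. The authors deposited that table as 1 column of log2 ratios per array. Its columns rose with red over green, correlated at 0.966 to 0.977 with the ratios used here, had slopes of 1.11 to 1.25 on them and had medians between -0.0058 and 0.0076. Its direction and centring are thus known, and the steps behind its scale are not.

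Spots were corrected with normexp (offset 50), normalized by loess within arrays, and spots of a probe were averaged, in limma 3.58.1 (R 4.3.3). Animal levels are channel values after Aquantile scaling. Probes well above background in at least 4 of 16 channels were kept (37352), and the brightest stood for its gene, leaving 29362 features, of which 16852 had a RefSeq symbol. Sprr1a, F10, A2m, Ccr2 and Plac8 passed this filter only through their cryolesioned animals, so their calls as higher are not independent of it. Group changes came from 1 linear model over all 8 arrays with a dye term (lmFit and eBayes, 4 residual degrees of freedom), adjusted by Benjamini-Hochberg over all features at 0.05, and tested on simulated data. Animals of a group are biological replicates, per the labels. An "at least" fold sets the mean level of the brighter group against the dimmer group's, each dim animal raised to the lowest level among probes above background. It describes mean levels and is not a lower limit on the fitted change. The precision is limited by the number of arrays.

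The 9 genes, the lists and the markers were chosen with earlier results of these data known. Named were all 9 genes, the 5 genes most like Tgm1, and up to 6 called genes of each list by size of change. One gene of the plasminogen system list is not reported here and enters no count of that list. Marker genes that were called, and Pf4, were named after their values were seen. Alternatives were another offset, the processed intensities, median centring, the authors' table, no filter on dim probes, the mean of a gene's probes, a separate-channel fit, an Xist covariate, a replicate block, and each array left out.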

Additional observations from a re-analysis of the deposited data

Results flagged for a closer look

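Thbd in Il6-deficient control animal 4 stood at 8.13, apart from the other 3 animals of its group, which lay between 8.66 and 8.71. It was the 1 of 36 combinations of gene and group in which the lowest or highest animal lay far from the rest by Dixon's ratio, and chance marks about 1 in 20 such groups.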

How the results depend on the processing

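Tgm1 was called in all 3 cryolesion comparisons under every one of the 17 alternatives, with log2 changes of 3.89 to 5.70 in floxed animals. It was chosen for its large change on these same arrays, so nothing is read from these calls. The count of the 9 genes called moved more. In place of 2 in Il6-deficient, 2 in floxed animals and 4 in their mean, the separate-channel fit called 4, 8 and 8. With processed intensities, median centring or no filter on dim probes it was 1 in each genotype, and with the Xist ratio as covariate 1 in Il6-deficient animals. Leaving out 1 array at a time gave 1 to 3 in Il6-deficient animals, 1 to 5 in floxed animals (5 without the first array of the cryolesioned groups, 1 without any other) and 2 to 6 in the mean: Plaur was called in 2, 1 and 8 of the 8 fits, Tgm2 in the mean in 6 and F13a1 in the mean in 4. The replicate block called 1 in each of the 3 comparisons. Replicate numbers paired no animals by design, and same-numbered animals on different arrays correlated at -0.24 to 0.53 (median 0.07). Of 16 animals 7 were closest to one of their own number, so the block is given only as an alternative. Under it Plau and Thbd had opposite signs in Il6-deficient animals, -0.16 and -0.19. After cryolesion the genotype difference of Plat turned to -0.22 in the separate-channel fit, -0.27 with the replicate block and ran from -0.48 to 0.16 with 1 array left out, and that of Serpine2 to -0.11 with median centring. The cause was not tested. In controls 33 of 153 genotype values of the 9 genes changed sign, and 20 of 153 differences of cryolesion changes. No alternative called any of the 9 genes in a genotype comparison or in that difference. Over all features, calls in Il6-deficient animals, against 803, were 326 with processed intensities, 358 with median centring, 3029 in the separate-channel fit, 6 with the replicate block and 37 to 1187 with an array left out. In floxed animals, against 896, they were 403, 358, 4766, 337 and 57 to 2140 under the same settings, and in the mean, against 3492, they were 1769 with processed intensities, 8269 in the separate-channel fit, 772 with the replicate block and 928 to 5179 with an array left out. The share called higher was 61.0% in Il6-deficient, 60.9% in floxed animals and 50.6% in the mean. With processed intensities these shares were 81.3%, 86.8% and 63.0%, with median centring 50.6%, 68.7% and 41.7%, in the separate-channel fit 53.0%, 48.3% and 45.9%, with the replicate block 100%, 79.2% and 56.5%, and with an array left out 64.8 to 86.6%, 39.3 to 91.2% and 44.7 to 66.8%, the lowest of each without the second array of the control groups. Of the 10 other named genes, F10 was called in the mean in 10 of 17 alternatives, Procr in 13, Serpini1 in 15, Sprr1a in 16 and the other 6 in all 17.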
